A study of Mus musculus with 20 samples.

Results

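The 10 genes described here encode serine proteases that act at the cell surface or close to it, 2 inhibitors of such proteases, and tissue factor. They were taken as a fixed list of symbols, chosen with earlier results of these data known. The symbols are St14, Prss8, Prss22, Prss23, Tmprss2, Tmprss13, Spint1, Spint2, Htra1 and F3. They make up 10 of the 45706 genes in the count files. All 10 passed the filter on low counts in tumors and in cells. The series holds RNA sequencing of mouse mammary carcinomas driven by MMTV-PyMT, a transgene that expresses the polyoma virus middle T oncogene from a promoter of mouse mammary tumor virus, on a C57BL/6N background. Tumors came from 18-week-old mice, 4 control animals and 4 MMTV-cre;Ctsd-/- animals, which lack the lysosomal aspartic protease cathepsin D (CTSD) in the mammary epithelium. Controls were CTSD-competent and carried untargeted or floxed Ctsd alleles. Cre was also driven by the MMTV promoter, so the stromal cells of a knockout tumor kept Ctsd. Cells were spontaneously immortalized tumor cells from 1 Ctsd+/+ and 1 MMTV-cre;Ctsd-/- PyMT mouse, both kept in medium with 1% fetal calf serum (FCS), either for 10 days (1% FCS) or for 12 weeks (1% FCS LT, long term), with 3 replicates in each of the 4 groups. With 1 line per genotype, the Ctsd genotype and the line cannot be told apart, and p-values in cells measure the spread between cultures of the same line. All tumors of a genotype also share 1 LR code in the library name, so the code and the genotype cannot be told apart there. In cells, replicate 1 of both 1% FCS groups has 1 LR code, replicate 3 of both LT groups another, and the other 8 libraries share the third.

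Type II transmembrane serine proteases and the GPI-anchored prostasin cut receptors, growth factor precursors, channels and junction proteins at the surface of epithelial cells. Matriptase (St14) and prostasin (Prss8) activate each other in a cascade that epithelia use to build their barrier, and the Kunitz-type inhibitors HAI-1 (Spint1) and HAI-2 (Spint2) hold both in check. In the mammary gland, matriptase is known as a protease of the epithelium that activates the precursor of hepatocyte growth factor, and it has been studied in PyMT tumors. The list is wider than its working name. Prss22, Prss23 and Htra1 encode secreted proteases, and tissue factor, encoded by F3, is a membrane receptor of coagulation factor VII and no protease itself.

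The tested loci lie on 6 chromosomes of GRCm38. Among the genes for membrane-anchored proteases, St14 is at chr9:31089402-31131853 (minus strand), Tmprss2 at chr16:97564682-97611195 (minus), Tmprss13 at chr9:45319100-45347581 (plus) and Prss8 at chr7:127925716-127930104 (minus). The inhibitor genes are Spint1 at chr2:119237362-119249527 (plus) and Spint2 at chr7:29256323-29281912 (minus). The secreted proteases are encoded by Prss22 at chr17:23993534-23998100 (minus), Prss23 at chr7:89507783-89527187 (minus) and Htra1 at chr7:130936111-130985660 (plus), and F3 is at chr3:121723537-121735048 (plus). Opposite-strand genes overlap the exons of 3 of them. Prss23os, an antisense gene, covers 22.9% of the exon bases of Prss23, Kat8 covers 6.59% of those of Prss8, and 1700003G13Rik covers 1.73% of those of Tmprss13. Tumor counts do not use strand, so reads from the shared bases of such a pair are left out there as ambiguous (7.11% to 15.6% ambiguous reads over all genes), whereas cell counts are strand-specific (1.11% to 1.25%).

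Promoter windows of 300 bases, from 250 bases before to 50 after the annotated start, were found in RefSeq (GRCm38.p6) for 6 of the 10 genes, Spint1, Spint2, F3, Prss23, Htra1 and Tmprss2. They were searched for the E-box CACCTG or its reverse complement CAGGTG, to which the repressors encoded by Snai and Zeb genes are known to bind, for ACCGGT, the core of the grainyhead-like motif, which reads the same on both strands, and for the AP-1 motif TGACTCA or TGAGTCA. The windows of the 2 Kunitz inhibitors are shown because both genes were called higher in 1% FCS Ctsd-/- cells, as described further on, while their windows hold different motifs. Capitals mark the motifs.
Spint1, chr2:119237110-119237409, plus strand: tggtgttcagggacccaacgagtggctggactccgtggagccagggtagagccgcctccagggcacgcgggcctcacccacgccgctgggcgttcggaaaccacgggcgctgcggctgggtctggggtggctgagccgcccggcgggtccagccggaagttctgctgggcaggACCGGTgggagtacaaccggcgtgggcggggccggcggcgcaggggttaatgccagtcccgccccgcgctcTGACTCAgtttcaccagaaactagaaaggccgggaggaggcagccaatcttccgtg
Spint2, chr7:29281928-29282227, minus strand: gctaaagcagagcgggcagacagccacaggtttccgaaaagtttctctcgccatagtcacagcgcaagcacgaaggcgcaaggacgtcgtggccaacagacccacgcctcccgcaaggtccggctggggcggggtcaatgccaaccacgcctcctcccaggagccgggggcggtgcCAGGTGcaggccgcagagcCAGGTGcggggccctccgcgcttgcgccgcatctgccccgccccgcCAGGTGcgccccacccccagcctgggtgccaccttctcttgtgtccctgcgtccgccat
The Spint2 window holds 3 E-boxes, which begin 74, 55 and 9 bases before the start. At least 1 E-box is present in 20.2% of 32851 promoter windows of the same length, and 3 or more in 0.365%. The Spint1 window holds no E-box, 1 grainyhead core 77 bases before the start (2.33% of all windows hold 1 or more) and 1 AP-1 motif 6 bases before it (5.2%). The AP-1 motif TGAGTCA was found in the F3 window at 135 bases before the start, and of 7 annotated Prss23 windows 5 hold an E-box and 2 an AP-1 motif. These windows overlap in part. The 2 with an AP-1 motif hold the same AP-1 motif and the same E-box, and the windows from 89517537 and 89517503 share another E-box. The counts of Prss23 windows are therefore not counts of separate sites. None of these letters occur in the windows of Htra1 and Tmprss2. A match describes the letters and is no evidence of binding.

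Libraries held 49725437 to 64291587 gene counts in tumors and 33622831 to 40239762 in cells. Levels are given as CPM, the read count of a gene scaled to the TMM-normalised library size, and levels of different genes are compared only as FPKM, which also divides by exon length. Ctsd itself checked the labels. It was at 1781 to 2617 CPM in control and 360.2 to 1295 CPM in MMTV-cre;Ctsd-/- tumors, and at 1267 to 4199 CPM in Ctsd+/+ and 114 to 192 CPM in Ctsd-/- cells. Luminal epithelial markers (7 genes, among them Epcam, Cdh1 and Krt8) were detected in every group. Their summed level was 958 to 1795 CPM in 1% FCS Ctsd+/+ cells and 4966 to 10895 CPM over the 3 other cell groups, so that the 1% FCS Ctsd+/+ cultures stood apart from all other cultures.

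In tumors, CTSD deficiency of the epithelium was accompanied by no called change of the 10 genes. In cells kept for 10 days in 1% FCS, 7 genes (St14, Prss8, Prss22, Tmprss2, Tmprss13, Spint1 and Spint2) were between 4.91-fold and 19.5-fold higher in Ctsd-/- than in Ctsd+/+ cells, and Prss23 was 51.4-fold lower. After 12 weeks in 1% FCS the same 7 genes were 3.74-fold to 13.4-fold above their 10-day level in Ctsd+/+ cells, and the difference between the genotypes was smaller or of the opposite sign. The plot of levels shows all values.

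**Figure D1:**
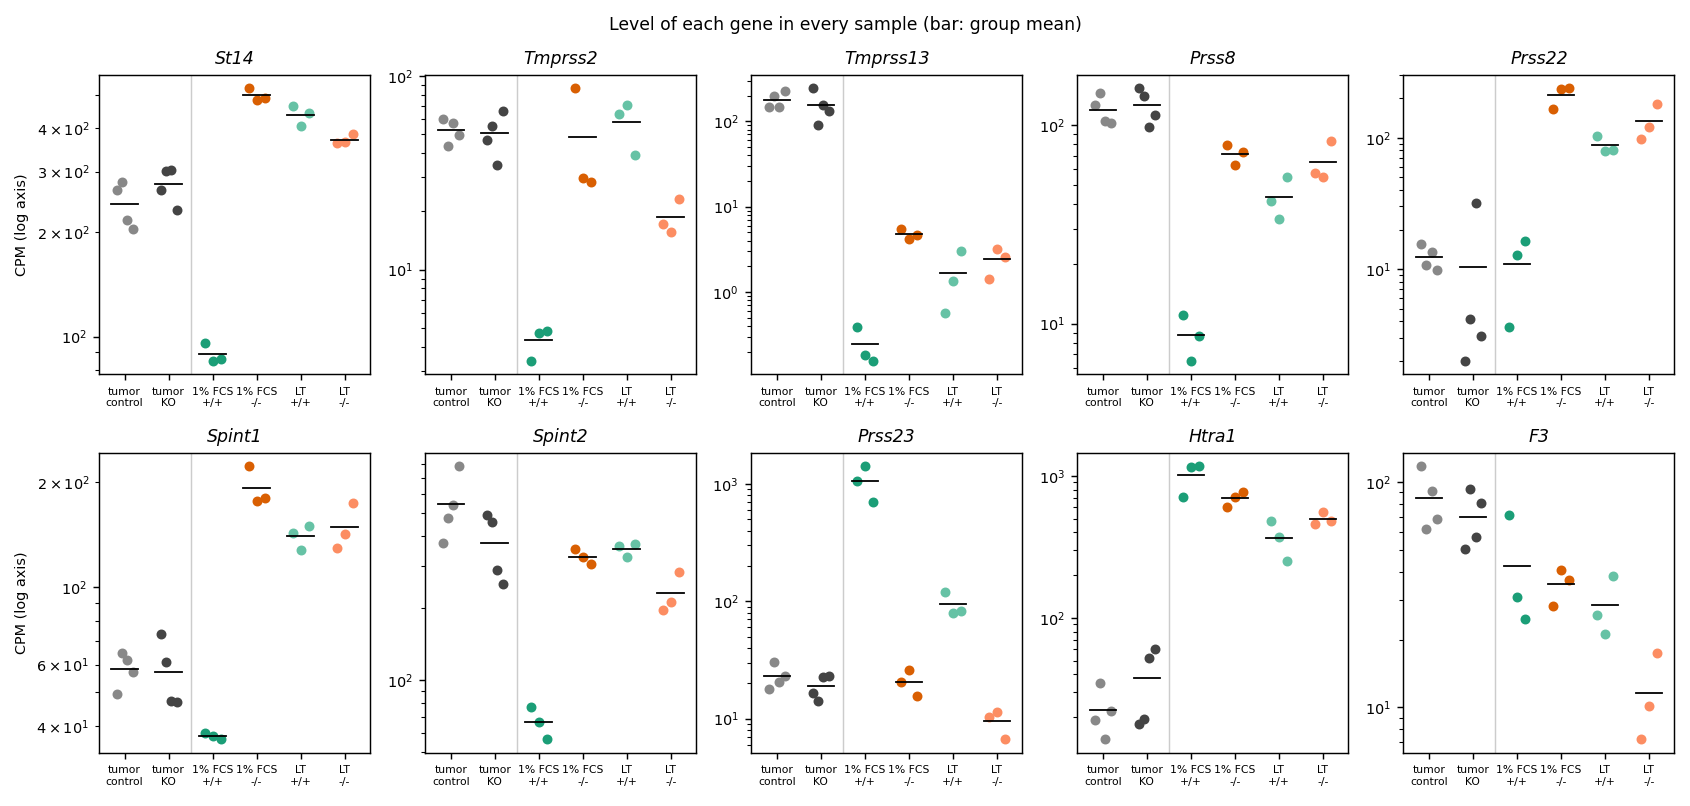
Level of each of the 10 genes in every sample, in CPM on a log axis, with 4 samples per tumor group and 3 per cell group. Horizontal bars are group means, KO is MMTV-cre;Ctsd-/-, +/+ and -/- are the Ctsd genotypes of the cells, and LT is 12 weeks in 1% FCS. In St14, Tmprss2, Tmprss13, Prss8, Prss22, Spint1 and Spint2 the 3 samples of 1% FCS Ctsd+/+ cells lie below all other cell samples, and in Prss23 they lie above them.

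The membrane-anchored proteases come first. St14 was at 95.7, 85.2 and 86.2 CPM in 1% FCS Ctsd+/+ cells and at 523, 482 and 491 CPM in 1% FCS Ctsd-/- cells. After 12 weeks it was at 466, 408 and 443 CPM in Ctsd+/+ and at 363, 364 and 385 CPM in Ctsd-/- cells. No ranges of the 4 groups overlapped, and the order was 1% FCS Ctsd-/-, LT Ctsd+/+, LT Ctsd-/- and, far below, 1% FCS Ctsd+/+. The log2 fold change (FC) of Ctsd-/- against Ctsd+/+ was 2.49 ± 0.10 (SE, n = 3 per group, edgeR adjusted p = 1.69e-08) in 1% FCS and -0.24 ± 0.09 (edgeR adjusted p = 0.0546) in 1% FCS LT. The latter missed the threshold of 0.05, but DESeq2 called it (adjusted p = 0.00871).

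Prss8, whose product prostasin is anchored by a lipid tail and acts with matriptase, was at 11.1, 6.50 and 8.66 CPM in 1% FCS Ctsd+/+ and at 79.6, 62.5 and 72.7 CPM in 1% FCS Ctsd-/- cells. After 12 weeks it was at 41.1, 33.5 and 54.8 CPM in Ctsd+/+ and at 57.3, 54.8 and 82.8 CPM in Ctsd-/- cells, so that the long-term groups overlapped. The log2 FC between genotypes was 3.03 ± 0.25 in 1% FCS (edgeR adjusted p = 2.35e-06) and 0.59 ± 0.23 in 1% FCS LT (edgeR adjusted p = 0.0583).

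Tmprss2, known for its regulation by androgens and for priming viral envelope proteins, was at 3.39, 4.73 and 4.82 CPM in 1% FCS Ctsd+/+ cells. The Ctsd-/- cultures of the same time had 86.8, 29.7 and 28.4 CPM, with replicate 1 about 3 times the level of the others. The long-term cells had 63.5, 70.7 and 39.0 CPM with Ctsd and 17.2, 15.7 and 23.1 CPM without it. Tmprss2 was thus higher in Ctsd-/- cells in the short term (log2 FC 3.48 ± 0.43, edgeR adjusted p = 5.11e-05) and lower in the long term (log2 FC -1.63 ± 0.40, edgeR adjusted p = 0.00651), without overlap of the groups in either. Without 1% FCS Ctsd-/- replicate 1, which also has another LR code than replicates 2 and 3, the short-term log2 FC became 2.76 and the call was kept.

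Tmprss13, a relative of Tmprss2 with the same membrane topology, was scarce in cells. It had 6 to 13 counts per library in 1% FCS Ctsd+/+ cells, or 0.157 to 0.390 CPM, against 4.19 to 5.43 CPM in 1% FCS Ctsd-/- cells (log2 FC 4.28 ± 0.61, edgeR adjusted p = 0.000139). The long-term groups overlapped, with 0.567 to 3.02 CPM in Ctsd+/+ and 1.41 to 3.22 CPM in Ctsd-/- cells. Without LT Ctsd+/+ replicate 3, the highest of its group, the log2 FC of the long-term genotypes went from 0.54 ± 0.51 to 1.32 and that of Ctsd+/+ cells over time from 2.76 ± 0.60 to 1.98. In tumors Tmprss13 was an abundant transcript, at 89.3 to 244 CPM over all 8 samples. By FPKM it ranked as the third of the 10 genes in both tumor groups and as the last in all 4 cell groups. Tumors and cells differ in RNA input and strandedness and were not tested against each other.

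Prss22 encodes a secreted epithelial tryptase known to activate pro-urokinase. It was at 3.63, 12.8 and 16.3 CPM in 1% FCS Ctsd+/+ cells and at 164, 236 and 239 CPM in 1% FCS Ctsd-/- cells, a log2 FC of 4.28 ± 0.46 (edgeR adjusted p = 1.61e-05). After 12 weeks the genotypes overlapped, with 78.7 to 104 CPM in Ctsd+/+ and 98.1 to 180.4 CPM in Ctsd-/- cells. The transcript of the proteases' known target, Plau (pro-urokinase), was also higher in 1% FCS Ctsd-/- cells, at 1108 to 1447 CPM against 103.5 to 208 CPM (log2 FC 2.98 ± 0.33, edgeR adjusted p = 2.34e-05). Plau and Prss22 did not go together in every comparison. In 1% FCS LT, where the Prss22 groups overlapped, Plau was at 665 to 730 CPM in Ctsd-/- and 110.9 to 298 CPM in Ctsd+/+ cells (log2 FC 1.795 ± 0.32, edgeR adjusted p = 0.00093). In Ctsd+/+ cells over time the log2 FC was 0.33 ± 0.31 for Plau (edgeR adjusted p = 0.4035) and 3.00 ± 0.43 for Prss22. Plau was singled out for this background, after its values were seen.

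The 2 Kunitz inhibitors were also lowest in 1% FCS Ctsd+/+ cells. Spint1 was at 38.3, 37.6 and 36.8 CPM in 1% FCS Ctsd+/+ and at 222, 177 and 179.7 CPM in 1% FCS Ctsd-/- cells (log2 FC 2.36 ± 0.13, edgeR adjusted p = 1.77e-07). After 12 weeks Spint1 was at 143, 128 and 150.1 CPM in Ctsd+/+ and at 129, 142 and 175 CPM in Ctsd-/- cells, where the groups overlapped (log2 FC 0.08 ± 0.13, edgeR adjusted p = 0.631). Spint2 was at 77.3, 66.7 and 56.9 CPM in 1% FCS Ctsd+/+ and at 354, 327 and 305 CPM in 1% FCS Ctsd-/- cells (log2 FC 2.30 ± 0.16, edgeR adjusted p = 6.54e-07). The long-term groups of Spint2 did not overlap, at 365, 327 and 371 CPM in Ctsd+/+ and at 196, 213 and 284 CPM in Ctsd-/- cells (log2 FC -0.62 ± 0.15, edgeR adjusted p = 0.00653). The promoter windows of these 2 genes, shown above, share no motif of those searched.

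**Figure D2:**
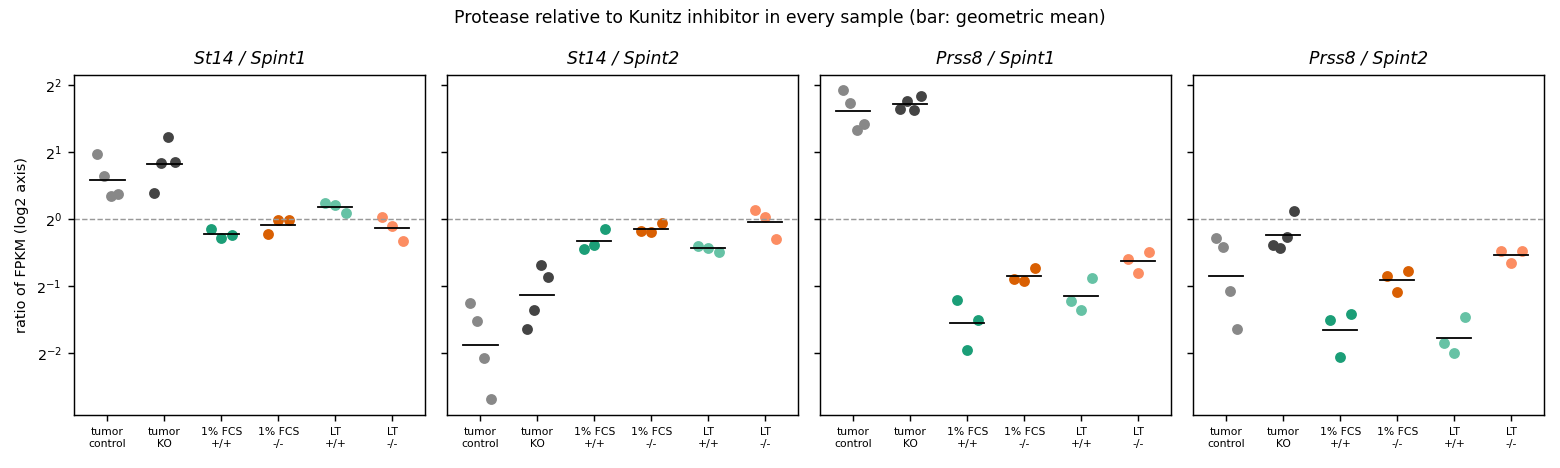
Ratio of protease FPKM to Kunitz inhibitor FPKM in every sample, on a log2 axis, for St14 and Prss8 over Spint1 and Spint2. Horizontal bars are geometric means of 4 tumors or 3 cell cultures, and the dashed line marks equal FPKM. The St14 to Spint1 ratio lies between 0.800 and 1.18 in all 12 cell samples and between 1.27 and 2.33 in all 8 tumors.

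Since a protease and its inhibitor rose together, the ratio of their levels was followed in every sample. The St14 to Spint1 ratio of FPKM was 0.822 to 0.904 in 1% FCS Ctsd+/+, 0.854 to 0.990 in 1% FCS Ctsd-/-, 1.07 to 1.18 in LT Ctsd+/+ and 0.800 to 1.02 in LT Ctsd-/- cells. It thus stayed near 1 while St14 itself was at 11.7 ± 0.76 FPKM in the lowest and 65.3 ± 2.8 FPKM in the highest of these groups (mean ± SD, n = 3). The St14 to Spint2 ratio was 0.713 to 1.10 over the 12 cell samples. The ratio of Prss8 to Spint1 varied more. It was at 0.259 to 0.433 in 1% FCS Ctsd+/+, 0.527 to 0.604 in 1% FCS Ctsd-/-, 0.392 to 0.546 in LT Ctsd+/+ and 0.574 to 0.709 in LT Ctsd-/- cells. In tumors it was 2.52 to 3.79 in controls and 3.09 to 3.57 in MMTV-cre;Ctsd-/- animals. The Prss8 to Spint2 ratio in the same order of cell groups was 0.24 to 0.375, 0.47 to 0.587, 0.252 to 0.364 and 0.633 to 0.718. In tumors St14 was at 0.156 to 0.421 of the Spint2 level in controls and at 0.323 to 0.625 in MMTV-cre;Ctsd-/- tumors, and these ranges overlapped. The ratios describe transcripts and were not tested, since the genes were chosen together.

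Prss23, which encodes a secreted serine protease, was highest where the 7 genes above were lowest. It was at 1065, 1407 and 701 CPM in 1% FCS Ctsd+/+ cells, second of the 10 genes by FPKM there, and at 20.4, 25.8 and 15.5 CPM in 1% FCS Ctsd-/- cells. The long-term cultures had 120.4, 79.3 and 83.2 CPM with Ctsd and 10.3, 11.3 and 6.72 CPM without it. No ranges of these 4 groups overlapped. Prss23 was the only one of the 10 genes called lower in Ctsd-/- cells at both times, with a log2 FC of -5.68 ± 0.34 in 1% FCS (edgeR adjusted p = 2.62e-07) and -3.32 ± 0.31 in 1% FCS LT (edgeR adjusted p = 9.12e-06). In tumors it was at 14.0 to 30.6 CPM.

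Htra1, which encodes a secreted protease of matrix proteins and growth factor regulators, had the highest FPKM of the 10 genes in all 4 cell groups. It was at 706, 1160 and 1163 CPM in 1% FCS Ctsd+/+ and at 603, 709 and 774 CPM in 1% FCS Ctsd-/- cells, and these groups overlapped (log2 FC -0.54 ± 0.24, edgeR adjusted p = 0.0800). Htra1 was called lower there by DESeq2 (adjusted p = 0.0469) and without 1% FCS Ctsd+/+ replicate 1 (log2 FC -0.74, edgeR adjusted p = 0.0176) or LT Ctsd+/+ replicate 3 (edgeR adjusted p = 0.0437). The same held in the 8 libraries that share an LR code (log2 FC -0.65, edgeR adjusted p = 0.0104). The long-term cells overlapped too, at 477, 373 and 251 CPM in Ctsd+/+ and at 460.5, 557 and 478 CPM in Ctsd-/- cells (log2 FC 0.44 ± 0.24, edgeR adjusted p = 0.162). F3, the start of the extrinsic coagulation pathway, was at 71.3, 31.0 and 24.7 CPM in 1% FCS Ctsd+/+ and at 28.1, 40.7 and 36.8 CPM in 1% FCS Ctsd-/- cells. Replicate 1 of the Ctsd+/+ group was apart from the others, and without it the log2 FC of -0.27 ± 0.40 (edgeR adjusted p = 0.610) became 0.34. Long-term F3 levels were 25.7, 21.2 and 38.2 CPM in Ctsd+/+ and 7.25, 10.2 and 17.4 CPM in Ctsd-/- cells (log2 FC -1.29 ± 0.41, edgeR adjusted p = 0.0261). That call was lost without LT Ctsd+/+ replicate 3 or LT Ctsd-/- replicate 1 or 2 (edgeR adjusted p = 0.0947, 0.0932 and 0.0862).

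Counted over the list, 7 of the 10 genes were called higher and 1 lower in 1% FCS Ctsd-/- against Ctsd+/+ cells at an adjusted p under 0.05, where 23.5% of the 15178 genes tested were called higher and 25.1% lower. The median log2 FC of the 10 genes was 2.42, against 0.00 for all genes. Because the 10 genes and all lists were chosen with earlier results of these data known, the shares of all genes are given as description. An excess over these shares, here or further on, is no independent result about the genes. In 1% FCS LT none was called higher and 4 were called lower (Prss23, Tmprss2, Spint2 and F3), beside 20.5% and 19.1% of all genes. Of those not called higher, Prss8 reached an unadjusted p under 0.05, and it was called by DESeq2 (adjusted p = 0.0439) and limma-voom (adjusted p = 0.0379). The groups did not overlap for 8 of the 10 genes in 1% FCS and for 5 in 1% FCS LT, against 55.2% and 54.2% of all genes. The count of non-overlapping genes after 12 weeks is thus near the background.

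**Figure D3:**
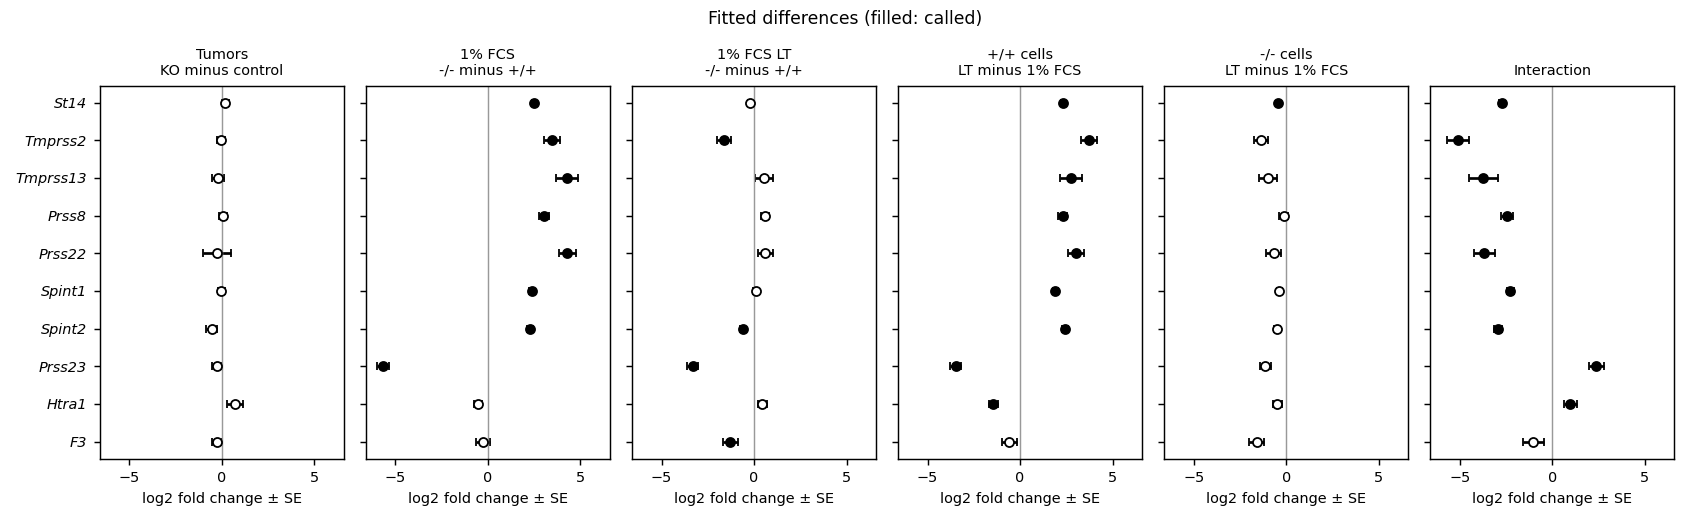
Fitted log2 fold changes with their SE (horizontal bars, edgeR) of the 10 genes for tumors and for the 5 comparisons of cells. Filled points passed the threshold, which is an unadjusted p under 0.1 in tumors and an adjusted p under 0.05 in cells. Of the 10 points, 0 are filled in tumors, 8 in 1% FCS, 4 in 1% FCS LT, 9 in Ctsd+/+ cells over time, 1 in Ctsd-/- cells over time and 9 in the interaction.

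Time in culture was compared within each genotype. The comparison of LT against 1% FCS Ctsd+/+ cells shares the 1% FCS Ctsd+/+ samples with the comparison of genotypes in 1% FCS, so their values stand side by side and are not independent. In Ctsd+/+ cells the log2 FC of LT against 1% FCS was 2.30 ± 0.10 for St14, 2.30 ± 0.24 for Prss8, 3.74 ± 0.44 for Tmprss2, 2.76 ± 0.60 for Tmprss13 and 3.00 ± 0.43 for Prss22. It was 1.90 ± 0.13 for Spint1 and 2.40 ± 0.16 for Spint2. Prss23 fell by 3.49 on the log2 scale and Htra1 by 1.46, from 1010 ± 263 to 367 ± 113 CPM (mean ± SD, n = 3). All 9 of these changes were called (edgeR adjusted p between 5.77e-08 and 0.00278), where 23.0% of all genes were called higher and 23.4% lower, and F3 was not (log2 FC -0.58, edgeR adjusted p = 0.264). The ranges of the 2 times did not overlap for 9 genes, against 53.7% of all genes.

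In Ctsd-/- cells 1 of the 10 genes was called over the same time. All 10 log2 FC were below 0, with a median of -0.59, and none was called higher, also not at an unadjusted p under 0.05. The called gene was St14, which was lower after 12 weeks (log2 FC -0.43 ± 0.09, edgeR adjusted p = 0.0359), where 1.57% of all genes were called higher and 0.810% lower. The ranges did not overlap for 8 of the 10 genes, against 25.4% of all genes. F3 went from 28.1 to 40.7 CPM in 1% FCS to 7.25 to 17.4 CPM in LT without overlap, yet missed the threshold (log2 FC -1.60 ± 0.41, edgeR adjusted p = 0.0678), and Prss23 did the same (log2 FC -1.12 ± 0.29, edgeR adjusted p = 0.0681). The log2 FC of Tmprss2 was -1.37 ± 0.39 (edgeR adjusted p = 0.0942) and became -0.64 without 1% FCS Ctsd-/- replicate 1. DESeq2 called 5 of the 10 genes lower, St14, Prss23, Tmprss2, Spint2 and F3. It also called more of all genes here, 1077 of 15165 in either direction, where edgeR called 238 higher and 123 lower of 15178. The St14 call was lost without any single Ctsd-/- library and without LT Ctsd+/+ replicate 2 or 3 (edgeR adjusted p between 0.0507 and 0.134).

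The study corrected the change over time in Ctsd-/- cells for that in Ctsd+/+ cells with an interaction contrast, the difference between genotypes in LT minus the difference in 1% FCS. By this contrast 7 of the 10 genes were called lower and 2 higher, where 14.1% and 16.1% of all genes were. The values were -5.11 ± 0.59 for Tmprss2, -3.74 ± 0.78 for Tmprss13, -3.68 ± 0.58 for Prss22, -2.91 ± 0.22 for Spint2, -2.73 ± 0.13 for St14, -2.44 ± 0.33 for Prss8 and -2.28 ± 0.18 for Spint1. Prss23 had 2.37 ± 0.40 and Htra1 0.98 ± 0.33, while F3 was not called (-1.02 ± 0.57, edgeR adjusted p = 0.202). A value below 0 here does not by itself show a fall in Ctsd-/- cells over time, although all 10 log2 FC were below 0 there. For Spint1 the groups hold 37.6 ± 0.78 and 140.3 ± 11.4 CPM in Ctsd+/+ cells before and after, and 193 ± 25.1 and 149 ± 23.3 CPM in Ctsd-/- cells, so that most of the interaction lay in the Ctsd+/+ cells. In Ctsd-/- cells over time Spint1 was lower without overlap but not called (log2 FC -0.38 ± 0.13, edgeR adjusted p = 0.145). The Htra1 call was lost without any 1 of 10 of the 12 libraries (edgeR adjusted p between 0.0594 and 0.104) and was kept without replicate 1 of 1% FCS or of LT Ctsd+/+ cells. F3 was called without 1% FCS Ctsd+/+ replicate 1 (log2 FC -1.63, edgeR adjusted p = 0.0226).

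Markers of other cell states moved with these genes. In 1% FCS Ctsd-/- against Ctsd+/+ cells all 7 luminal markers were called higher, 6 of 7 mesenchymal markers lower and 8 of 9 epithelial transcription factors higher. Of all genes, 23.5% were called higher and 25.1% lower in this comparison. Vim, an intermediate filament of mesenchymal cells, was at 2750 to 3481 CPM in 1% FCS Ctsd+/+, 8.61 to 11.1 CPM in 1% FCS Ctsd-/-, 0.906 to 7.18 CPM in LT Ctsd+/+ and 38.1 to 810 CPM in LT Ctsd-/- cells. Zeb1, a repressor of epithelial genes, was at 62.6 to 101 CPM in 1% FCS Ctsd+/+ and at 0.548 to 0.998 CPM in 1% FCS Ctsd-/- cells. After 12 weeks Zeb1 was at 1.76 to 1.85 CPM in Ctsd+/+ and at 3.145 to 23.1 CPM in Ctsd-/- cells. Grhl2, an activator of epithelial genes of the grainyhead family, was at 23.9 to 28.1 CPM in 1% FCS Ctsd+/+ and at 79.8 to 135 CPM in the others. The summed level of 6 fibroblast markers was 1159 to 3045 CPM in 1% FCS Ctsd+/+ and 5.04 to 11.85 CPM in 1% FCS Ctsd-/- cells. In the long-term cells this sum was 3.03 to 8.19 CPM with Ctsd and 9.51 to 99.8 CPM without it. Lum was at 3 counts or fewer in every library of 1% FCS Ctsd+/+ cells. Of 4 basal markers tested, 1 was called higher and 3 lower in 1% FCS Ctsd-/- cells, with summed levels of 5.69 to 8.34 CPM against 45.2 to 102 CPM. Markers of macrophages, endothelium, T and B cells and adipocytes summed to at most 63.6 CPM in any culture. The part of all these markers in the results was not tested, and in a culture measured in bulk, fewer cells of a type and less RNA per cell cannot be told apart.

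**Figure D4:**
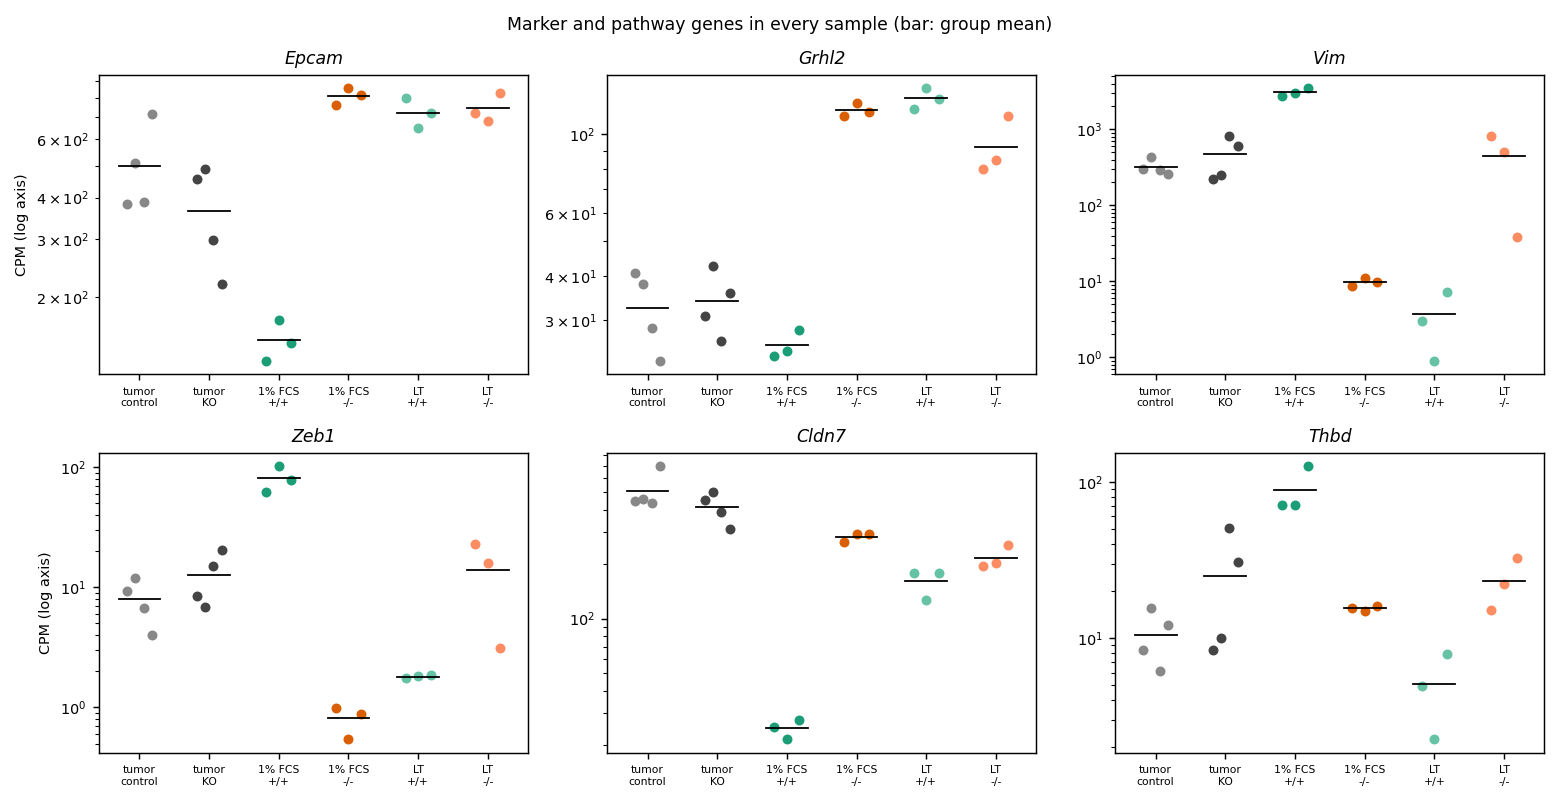
Levels of Epcam and Grhl2 (epithelial), Vim and Zeb1 (mesenchymal), Cldn7 (a junction protein) and Thbd (thrombomodulin) in every sample, in CPM on log axes that differ between panels. Bars are group means of 4 tumors or 3 cultures. Vim lies at 2750 to 3481 CPM in 1% FCS Ctsd+/+ cells and is split in LT Ctsd-/- cells, where replicate 3 has 38.1 CPM and the others 506 and 810 CPM.

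Genes whose log2 CPM over the 12 cell samples was most like that of each gene of the list were found by Pearson correlation, which describes these cultures and carries no test, since the 4 groups shape all such values. For St14 they were Map7, Elmo3 and Shtn1 (r = 0.994, 0.994 and 0.993). The nearest gene was Sowahb for Prss8 (r = 0.995), Krt7 for Prss22 (0.992), Pdzd7 for Tmprss2 (0.966), Phf3 for Tmprss13 (0.982), Tmem102 for Spint1 (0.990) and Ssh3 for Spint2 (0.990). For Prss23 it was Snai1 (0.989), which encodes a repressor of epithelial genes, for Htra1 Srsf7 (0.961) and for F3 Creb3 (0.916). Within the list, St14 and Spint1 were closest (r = 0.986), and Prss8 and Prss23 were farthest apart (r = -0.938).

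Other genes of the same pathway were taken from lists. Of 24 further genes for membrane-anchored serine proteases 8 were tested in cells, and 6 were called higher and 0 lower in Ctsd-/- cells in 1% FCS (23.5% and 25.1% of all genes), while 4 were called lower and 0 higher in the interaction (14.1% and 16.1% of all genes). The 6 include Prss27, Tmprss11f and Tmprss4, scarce transcripts at or below 2.90 CPM in both 1% FCS groups. The counts are therefore given as description and are not read as a result about the list. Prss27, which encodes a GPI-anchored protease, was at 0.480 to 1.59 CPM in 1% FCS Ctsd+/+ and 1.90 to 2.90 CPM in 1% FCS Ctsd-/- cells, and at 9.25 to 13.6 CPM in LT Ctsd+/+ against 0.982 to 1.62 CPM in LT Ctsd-/- cells (interaction -4.60 ± 0.54, edgeR adjusted p = 8.08e-05). Tmprss11f stayed at or below 1.75 CPM in all cells (interaction -3.23 ± 0.85, edgeR adjusted p = 0.0138). Tmprss4, known from carcinomas, had 0 counts in all 3 libraries of 1% FCS Ctsd+/+ cells and 2 to 6 counts in those of 1% FCS Ctsd-/- cells, and 0.599 to 1.97 CPM in the long-term cells, so that its fitted changes are not sized by the counts. In tumors 8 of the 24 were tested and none was called at an unadjusted p under 0.1.

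Of 19 reported substrates, receptors and partners of matriptase and prostasin 14 were tested in cells, with 9 called higher and 1 lower in 1% FCS Ctsd-/- cells and 7 called lower and 1 higher in the interaction, beside the same shares of all genes. Fgfbp1, which encodes a carrier of fibroblast growth factors, was at 1.74 to 6.67 CPM in 1% FCS Ctsd+/+, 38.1 to 76.2 CPM in 1% FCS Ctsd-/-, 66.1 to 118 CPM in LT Ctsd+/+ and 59.8 to 161 CPM in LT Ctsd-/- cells (interaction -3.60 ± 0.65, edgeR adjusted p = 0.00157). Cldn7, a claudin of epithelial junctions that binds EpCAM, rose from 21.7 to 27.6 CPM in 1% FCS Ctsd+/+ cells to 127 to 179 CPM in LT (log2 FC 2.70 ± 0.16, edgeR adjusted p = 3.13e-07). Of 20 further genes from families of inhibitors of trypsin-like proteases 8 were tested in cells. Membership of this list does not mean that each product, such as maspin, inhibits these proteases. In 1% FCS 3 were called higher and 2 lower in Ctsd-/- cells, near the 23.5% and 25.1% of all genes. Serpinb5 (maspin) and Wfdc2 went with the Kunitz inhibitors in the interaction (-2.87 ± 0.38 and -2.79 ± 0.50), and Serpine2, an inhibitor of thrombin and urokinase, had the opposite sign (2.74 ± 0.64, edgeR adjusted p = 0.00723).

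In tumors the question was whether the loss of CTSD in the mammary epithelium changes these genes in the animal. By edgeR 0 of the 10 genes were called at the threshold of the study, an unadjusted p under 0.1, and 0 reached an unadjusted p under 0.05, where 16.7% of the 18617 genes tested were called. DESeq2 and limma-voom each called 1, Spint2. All 10 pairs of groups overlapped, while 4.15% of all genes had groups that did not. At 241.5 ± 36.5 CPM in controls and 276 ± 33.5 CPM in MMTV-cre;Ctsd-/- tumors (mean ± SD, n = 4), St14 differed by 0.19 ± 0.19 on the log2 scale (edgeR unadjusted p = 0.351). Spint2 had the highest FPKM of the 10 genes in both tumor groups, at 376, 476, 540.0 and 782 CPM in controls and at 491, 459.5, 289.9 and 252 CPM in knockout tumors. Its log2 FC was -0.54 ± 0.30 (edgeR unadjusted p = 0.102), and it lay between -0.32, without control replicate 4, and -0.71, without knockout replicate 1. It was called without control replicate 1 or knockout replicate 1 or 2 (edgeR unadjusted p = 0.0544, 0.0583 and 0.0821). Htra1 was at 19.2, 34.7, 14.1 and 22.0 CPM in controls and at 17.9, 19.4, 52.0 and 60.5 CPM in knockout tumors, where replicates 3 and 4 were above all controls and the other two were within their range (log2 FC 0.74 ± 0.44, edgeR unadjusted p = 0.121). Htra1 was called higher without control replicate 2 or knockout replicate 1 or 2 (edgeR unadjusted p = 0.0507, 0.0433 and 0.0532).

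Prss22 was the most uneven gene among the tumors. It was at 15.6, 10.7, 13.5 and 9.77 CPM in controls and at 2.00, 4.20, 31.9 and 3.10 CPM in knockout tumors. Replicate 3 was above all controls and the other 3 were below all of them. The log2 FC was -0.27 ± 0.76 with all samples (edgeR unadjusted p = 0.731) and -1.997 without knockout replicate 3 (edgeR unadjusted p = 0.000234, adjusted p = 0.561). The other genes stayed within narrower limits over all 8 tumors. Prss8 was at 97.8 to 153 CPM, Tmprss2 at 34.8 to 66.2 CPM, Spint1 at 46.8 to 73.5 CPM and F3 at 50.4 to 117 CPM.

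Markers of other cell types moved with the tumor groups. The 6 adipocyte markers were all called higher in MMTV-cre;Ctsd-/- tumors (edgeR adjusted p between 0.369 and 0.553), with overlapping summed levels of 519 to 5556 CPM in controls and 3300 to 22633 CPM in knockout tumors, and 3 of 5 endothelial markers were called higher. Of 6 fibroblast, 7 mesenchymal, 5 basal and 6 T and B cell markers 1 each was called higher, and of 6 macrophage markers and 9 epithelial transcription factors 0 were called. Of 7 luminal markers 0 were called, with sums of 5791 to 9470 CPM in controls and 5380 to 6832 CPM in knockout tumors. Over all genes the share called in tumors was 16.7%, in either direction. The luminal epithelial and the adipocyte markers were each also entered in the tumor fit as a covariate. Otherwise the part of the markers in the tumor values was not tested. With the luminal epithelial markers the log2 FC of Prss8 became -0.039 and that of Prss22 0.011. The adipocyte markers were themselves higher in knockout tumors, so with that covariate genotype and adipocyte content cannot be told apart. With the adipocyte markers as a covariate in the fit, the log2 FC of Htra1 became -0.71 and that of Prss23 -0.85 (edgeR unadjusted p = 0.0238, adjusted p = 0.858), in place of -0.28 ± 0.24. In the wider lists, Serpinb5 (log2 FC -0.78 ± 0.32, edgeR unadjusted p = 0.0316) and Serpinb8 (-1.17 ± 0.29, edgeR unadjusted p = 0.00202) were the only 2 called of 14 tested genes from the inhibitor families, both lower in knockout tumors. Among 18 substrates and partners, 2 were called and both were higher, Mst1r, the receptor of a growth factor related to HGF (1.02 ± 0.48, edgeR unadjusted p = 0.0580), and Hgf itself (0.74 ± 0.39, edgeR unadjusted p = 0.0885). The counts of 2 of 14 and 2 of 18 are smaller shares than the 16.7% of all genes called in tumors.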

How the data were processed

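RNA of tumors and cells was sequenced by the authors on an Illumina HiSeq instrument, trimmed with Trimmomatic and mapped to GRCm38/mm10 with STAR (versions not given in the sources used here). The deposited files hold raw counts per Ensembl gene in 3 forms, 1 that ignores strand and 1 for either strand, without normalization. The annotation release is not given in the sources used here. Reads that map to several places or overlap more than 1 gene were left out by the counting. Counts that ignore strand were used for tumors, where 52.8% to 53.7% of strand-assigned counts lay on the opposite strand, and counts on the opposite strand for cells, where 97.1% to 97.3% did. Intervals and thresholds cover counting and replicate error at depths of 49725437 to 64291587 counts in tumors and 33622831 to 40239762 in cells.

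Gene symbols, positions and exon lengths came from GENCODE M21 (GRCm38), in which 45143 of 45706 identifiers were found. Groups were taken from the sample titles, and no replicates were alike enough to be 1 library. Counts were filtered with filterByExpr, scaled with TMM and tested in edgeR 4.0.16 (R 4.3.3) by the two-sided quasi-likelihood F-test, tumors (18617 genes) and cells (15178 genes, 12 samples in 1 fit) apart, with Benjamini-Hochberg adjustment over all genes. SE is the log2 fold change divided by the square root of F. A call is an unadjusted p under 0.1 in tumors and an adjusted p under 0.05 in cells, as in the study. DESeq2 1.42.0, limma-voom (limma 3.58.1), other scalings, filters, count forms, covariates, a replicate block and left-out libraries were alternatives. The fits were tested on simulated data. The 10 genes and all lists were chosen with earlier results of these data known. Named were the 10 genes, Ctsd, up to 3 genes per list with the largest called interaction and tumor change, and the gene most like each of the 10 (3 for St14). Genes named outside this rule are Plau and the members of the marker lists. A planned search of protein sequences was not run. 1 gene that the rule names is not reported here.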

Additional observations from a re-analysis of the deposited data

Results flagged for a closer look

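Among 20 tests of the 10 genes in the 2 tumor groups for a sample far from the others, 1 was flagged, and chance flags about 1 in 20 groups. It was Prss22 in MMTV-cre;Ctsd-/- tumor replicate 3, at 31.87 CPM, where the gap to the next sample took 0.927 of the range of the group, above the critical value of Dixon's test for 4 samples.

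The effect of genotype differed between 1% FCS and 1% FCS LT cells, by the interaction term of edgeR at an adjusted p under 0.05, for 9 of the 10 genes. Of all genes, 16.1% were called higher and 14.1% lower. The call of Htra1 was kept in 2 of 12 fits without a single library. The difference in log2 fold change was -5.114 for Tmprss2, -3.742 for Tmprss13, -3.676 for Prss22, -2.913 for Spint2, -2.729 for St14, -2.443 for Prss8, -2.277 for Spint1, 2.366 for Prss23 and 0.9797 for Htra1. Luminal markers (7 of 7 called lower) and mesenchymal markers (6 of 7 called higher) moved in the same contrast, and their part in it was not tested.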

How the results depend on the processing

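Of 1265 values of single genes under the alternatives, 1165 kept direction and side of the threshold, 55 passed it newly, 25 lost it and 20 changed sign, all of these among values that had not been called. Of 31 called values, the exceptions were St14 in Ctsd-/- cells over time, F3 in 1% FCS LT and Htra1 in the interaction. In tumors the count of called genes was 0 and became 1 with DESeq2, limma-voom, DESeq2 size factors or the adipocyte covariate, 2 without the filter and 0 to 3 without single libraries. Signs turned in tumors for Tmprss2 (0.023 with library totals, 0.038 with the adipocyte covariate, -0.20 to 0.10 without single libraries), Spint1 (0.051, 0.18 and -0.18 to 0.056 in the same order), Htra1 (-0.71) and F3 (0.11) with the adipocyte covariate, Prss8 (-0.039 with the epithelial covariate, -0.036 to 0.18 without single libraries) and Prss22 (0.011 with the epithelial covariate, -1.997 to 0.10 without single libraries). In Ctsd-/- cells over time, 1 called gene became 5 with DESeq2, 0 with library totals, 3 without the filter, 4 in the 8 libraries that share an LR code, 3 with the 2 groups alone and 0 to 3 without single libraries. Of all genes, 1077 of 15165 were called with DESeq2, 397 of 15178 with library totals and 680 of 27376 without the filter. In the 8 libraries it was 756 of 15166, and with the 2 groups alone 543 of 13969. In 1% FCS LT the count of 4 was 3 to 7 without single libraries, with 7 without 1% FCS Ctsd+/+ replicate 1. F3 in 1% FCS turned to 0.48 in those 8 libraries and ranged from -0.56 to 0.34 without single libraries, F3 in Ctsd+/+ cells over time from -0.85 to 0.025, and Spint1 in 1% FCS LT from -0.043 to 0.18. The cause was not tested.

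Replicate numbers are shared between groups. The main fits did not pair the samples, because in no pair of groups was every correlation of same-numbered deviations above 0.1. The 1% FCS Ctsd+/+ and Ctsd-/- groups, where replicate 1 of both has another LR code, missed that cut narrowly (lowest 0.09997). Their mean was 0.254 for same and -0.126 for other numbers. For LT Ctsd-/- cells it was 0.174 against -0.086 with 1% FCS Ctsd+/+ and 0.147 against -0.0734 with 1% FCS Ctsd-/- cells. Whether cultures of a number belong together cannot be told from these values. With a replicate block the counts of called genes were 0 in tumors, 8 in 1% FCS, 5 in 1% FCS LT, 2 in Ctsd-/- cells over time, 9 in Ctsd+/+ cells over time and 8 in the interaction. It gained Prss8 in 1% FCS LT (edgeR adjusted p = 0.0155) and Prss23 in Ctsd-/- cells over time (0.0223), lost Htra1 in the interaction (0.0648) and changed no other call of the 10 genes. The FPKM ratios were recomputed with the other form of the counts, an alternative chosen after seeing the data, and moved by less than 1 SD. Tmprss13 at 6 to 13 counts in 1% FCS Ctsd+/+ libraries is limited by depth.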

Other observations

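Of 13 genes of the coagulation pathway 5 were tested in cells, and 2 were called higher, 0 lower and 3 not at all in the interaction, where 16.1% of all genes were called higher and 14.1% lower. With 5 genes tested this count is not read as a result about the pathway. Thbd (thrombomodulin, the endothelial cofactor that turns thrombin to protein C) was at 70.9 to 125 CPM in 1% FCS Ctsd+/+, 15.0 to 16.1 CPM in 1% FCS Ctsd-/-, 2.26 to 7.96 CPM in LT Ctsd+/+ and 15.1 to 32.8 CPM in LT Ctsd-/- cells (interaction 4.73 ± 0.57, edgeR adjusted p = 0.000105). F2r, the thrombin receptor, was at 50.3 to 62.3 CPM in 1% FCS Ctsd+/+ and 13.6 to 30.5 CPM in LT Ctsd+/+ cells (interaction 1.32 ± 0.37, edgeR adjusted p = 0.0181). In tumors Thbd was called higher in MMTV-cre;Ctsd-/- animals (log2 FC 1.25 ± 0.55, edgeR unadjusted p = 0.0472), beside the 3 of 5 endothelial markers that were, and F7 was called lower, with 6 to 18 counts per knockout library and 32 to 216 per control library (edgeR unadjusted p = 0.000718, adjusted p = 0.292).

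Of the relatives of Htra1 and Prss23, 3 of 4 were called higher in MMTV-cre;Ctsd-/- tumors, where 16.7% of all genes were called in either direction. They were the stromal protease Htra3 at 24.2 to 88.5 CPM against 13.8 to 48.3 CPM (log2 FC 1.14 ± 0.51, edgeR unadjusted p = 0.0483), the mitochondrial protease Htra2 (0.35 ± 0.17, edgeR unadjusted p = 0.0595) and Htra4 (1.48 ± 0.82, edgeR unadjusted p = 0.0989). The ranges of the groups overlapped for Htra3 and Htra4 but not for Htra2. Htra4 was scarce, at 8 to 15 counts per control library and at 97, 55, 10 and 7 counts in knockout replicates 1 to 4. Its log2 FC therefore rests on knockout replicates 1 and 2. With 4 genes tested, the count of 3 is not read as a result about the family. In cells Htra4 had 12 to 18 counts per library in 1% FCS Ctsd+/+ cells and at most 1 in any other cell library, so that its fitted changes are not sized by the counts. Htra2 was called higher in the interaction (0.58 ± 0.18, edgeR adjusted p = 0.0287).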
